A study of Oryza sativa with 9 samples.

Results

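The comparison of leaves labelled as overexpressing OsHMGB707 with wild-type leaves rests on 6 of the 9 arrays of the series, 3 from each group, chosen by their titles alone. The plants were Zhonghua11 (ZH11), a japonica rice, and leaf RNA was taken from unstressed 21-day-old seedlings. The labels give liquid culture, with 16 h of light at 28 °C and 8 h of dark at 24 °C. Wild-type (WT) plants carried no construct. In the overexpression (OE) plants the full-length OsHMGB707 cDNA, cloned from the upland variety IRAT109, stood behind the constitutive CaMV 35S promoter, and the plants came from Agrobacterium transformation with selection on hygromycin. Each array measured a pool of seedlings. The labels do not name the transformed line, so the 3 OE arrays may stem from 1 line, and no transformed control without the gene was among the arrays. The effect of the construct cannot be told apart from effects of transformation, selection or insertion site. The other 3 arrays, from plants with an RNA interference construct against the same gene (RNAi), entered the estimate of the spread, and their values stand beside those of OE.

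The product of OsHMGB707 is a high mobility group box (HMGB) protein. Proteins of this family bind DNA with little regard for sequence, bend it, and so alter how chromatin is packed and how accessible promoters are to other factors. The gene was isolated for its possible role in drought tolerance, and the array comparison asked which genes differ in OE leaves before any stress is applied.

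Levels are log2 values of 57194 probe sets, and a difference is OE minus WT on that scale, so that 1 is a 2-fold change. Arrays are numbered WT1 to WT3, OE1 to OE3 and RNAi1 to RNAi3. Array medians lay between 5.89 and 5.94. Calls were made at an adjusted p under 0.05 (limma, Benjamini-Hochberg), and 1680 probe sets passed, or 2.94% of those tested. Of these, 716 were higher (1.25%) and 964 lower (1.69%) in OE, and in 23.3% of all probe sets every OE array lay on 1 side of every WT array. Counted by gene, with the probe set of highest mean for each, 876 of 17905 genes were called (4.89%), 335 higher (1.87%) and 541 lower (3.02%). Higher probe sets made up 42.6% of the calls, and 32.6% after each array was centred on its median. The lean to lower calls depended on single arrays. It was lost without WT2 (291 higher and 288 lower), WT3 (281 and 246) or OE2 (646 and 578). Without any 1 of the other arrays it was kept, and higher calls made up 41.2% (without OE3) to 46.2% (without OE1). Where a call is given as lost without several arrays, leaving out each of them on its own was enough, and the largest adjusted p so reached follows. Only 926 calls were left when WT1 was dropped, 579 when WT2 was, 527 when WT3 was and 664 when OE1 was. Calls are named "stable" below where they held with all 9 arrays and without each of the 9 in turn, which was so for 445 probe sets (0.778%), 233 higher (0.407%) and 212 lower (0.371%). Of 2458 genes with a name, 117 were called (4.76%), 63 higher (2.56%) and 54 lower (2.2%), and 27 were stable (1.1%), 18 higher (0.732%) and 9 lower (0.366%). Between OE and RNAi 3521 probe sets were called (6.16%), 1796 higher (3.14%) and 1725 lower in OE (3.02%).

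Markers of the labelled tissue and of other tissues were compared between the groups. The 4 leaf markers that could be matched, among them the Rubisco small subunit gene OsrbcS and the chlorophyll-binding protein gene CAB2R, differed from WT by -0.002 to 0.064, and none was called. Their summed log2 level was 55.3 on each WT array and 55.2 to 55.6 in OE. None of the 4 root and 3 meristem marker genes was called either. The smallest adjusted p among these 11 genes was 0.306. The root genes Lsi1 and IRT1 and the meristem gene FON1 read above the array medians in WT (means 7.95, 7.73 and 9.34). The root genes Lsi2 and NAS1 and the meristem genes OSH1 and HOS16 read below them (means 4.37, 4.95, 3.71 and 5.11). The markers thus do not show that the samples held leaf alone. Of 11 flower and pollen markers, 3 were called higher and 1 lower. The sum of these 11 was 64.2 to 64.9 in OE, 59.995 to 61.032 in WT and 59.0 to 60.5 in RNAi, and 3 of them read below the lower quartile of every WT array. In bulk leaf tissue, fewer cells of a type and less RNA per cell cannot be told apart.

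The transcript of OsHMGB707 (LOC4336676, chromosome 4) was not higher in OE. Its brighter probe set read 12.39, 12.38 and 12.38 in WT and 12.25, 12.28 and 12.37 in OE. All 3 OE arrays thus lay below the WT arrays, by a difference of -0.09 that was not called (SE 0.095, adjusted p = 0.703). A dimmer probe set read 6.93, 6.48 and 6.33 in WT against 6.28, 6.28 and 6.38 in OE (-0.27, adjusted p = 0.419). On the RNAi arrays the brighter probe set read 10.30, 10.43 and 10.03. On these arrays the direction that the OE label gives is therefore not backed by the target, and "OE" means the arrays labelled so. By real-time qPCR, the study reports higher OsHMGB707 expression in several overexpression lines than in WT. The labels do not say which of those lines the arrays measured. Whether the probes lie in the introduced cDNA was not tested.

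Stable rises were ranked by gene, each read by its probe set of highest mean among those that the platform gives to a single gene. The 5 largest started at or near the bottom of the scale in WT. A dimmer probe set listed as LOC9268613, left out of this ranking, rose by 4.66 (adjusted p = 1.12e-06) and lay 4.68 above WT in RNAi. The study's annotation places it on chromosome 1, not on chromosome 10 as the platform does. The brighter probe set of LOC9268613 rose by 3.29. LOC4331398 on chromosome 3 read 3.29, 3.88 and 3.68 in WT and 11.67, 11.55 and 11.50 in OE (difference 7.96, SE 0.13, adjusted p = 1.29e-09), and its second probe set differed by 8.09. The RNAi arrays read 11.55, 11.56 and 11.52, the same level as OE (OE minus RNAi 0.03, adjusted p = 0.916). A like pair of rises was seen for LOC4342716 on chromosome 7, which went from 4.34, 4.38 and 4.93 to 8.43, 8.64 and 8.99 in OE (4.14, SE 0.18, adjusted p = 3.64e-06). It read 8.67, 8.44 and 8.78 in RNAi, 0.06 from OE (adjusted p = 0.889). LOC4328903, which the study's annotation gives as a dof zinc finger factor, rose by 4.05 (SE 0.20, adjusted p = 8.5e-06) and lay 3.635 above WT in RNAi. No fold is given where a group's mean was under the lower quartile of its arrays, because the table holds no detection calls.

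LOC4340325 read 4.65, 4.30 and 4.08 in WT and 9.64, 9.85 and 9.53 in OE, a difference of 5.33 (SE 0.16, adjusted p = 2.1e-07) from a WT mean at the lower quartile. In RNAi it read 8.71, 8.56 and 9.003, lower than in OE by 0.92 (adjusted p = 0.00926). Its second probe set differed by -0.03 in OE, and the study's annotation places the first on chromosome 3, not on chromosome 6 as the platform does. The same doubt touches the probe set listed as JAZ2, a jasmonate ZIM-domain repressor on chromosome 7. It read 3.11, 4.51 and 3.85 in WT, 9.05, 9.55 and 10.09 in OE and 7.54, 6.76 and 6.995 in RNAi. The rise of 5.74 (SE 0.36, adjusted p = 4.15e-05) was stable, but the study's annotation gives this probe set to LOC_Os05g36240, an expressed protein on chromosome 5. A second probe set of that locus moved too, from 5.42, 6.25 and 5.51 in WT to 7.94, 8.24 and 9.07 in OE (2.69, adjusted p = 0.00115). Of 2 probe sets with nearly the same identifier, 1 is annotated LOC_Os07g05840, on chromosome 7 as JAZ2 is, and rose by 3.72 (3.56, 4.26 and 3.46 to 7.01, 7.48 and 7.95, adjusted p = 0.000109), and the other, without annotation, by 2.42 (adjusted p = 0.000431). Of 185 probe sets with a chromosome in both annotations, 180 had the same one. These 2 and the dimmer probe set listed as LOC9268613 were among the 5 that did not. Which locus these probe sets measure was not settled, so the rise is given to the probe set and not to JAZ2.

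Some large rises set OE apart from both other groups. LOC_Os07g06834, an expressed protein on a probe set with no listed gene, read 6.48, 6.61 and 6.005 in WT, 11.93, 12.21 and 11.86 in OE and 7.95, 7.75 and 7.95 in RNAi. It was thus above the array medians in WT, rose 49.7-fold (5.635, SE 0.15, adjusted p = 1.07e-07), more than all but 2 of the 5 genes above, and lay 4.12 higher in OE than in RNAi (adjusted p = 1.28e-06). LOC_Os08g27870, annotated by the study as an EARLY flowering protein, read 4.26, 4.29 and 4.43 in WT, 6.64, 6.62 and 6.65 in OE and 4.65, 4.43 and 4.65 in RNAi (OE minus WT 2.31, adjusted p = 5.79e-07, OE minus RNAi 2.06, adjusted p = 1.42e-06). The nodulin-family gene LOC4335836 rose by 2.16, from 5.47, 5.82 and 5.40 to 7.39, 7.74 and 8.03 (adjusted p = 0.000533), and was 2.09 above RNAi (adjusted p = 0.000454). The copine gene LOC4325244, of a family of calcium-dependent membrane-binding proteins, was already bright. It went from 10.89, 10.95 and 10.97 to 12.17, 12.10 and 12.15 (1.20, SE 0.06, adjusted p = 7.83e-06), with 10.88, 10.95 and 10.96 in RNAi. These 4 genes were picked from the study's table of changed genes after their values were seen. So were all further genes named by a locus number below. Exceptions are those said to be among the 5 largest rises or falls or in a run of neighbouring called genes.

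**Figure D1:**
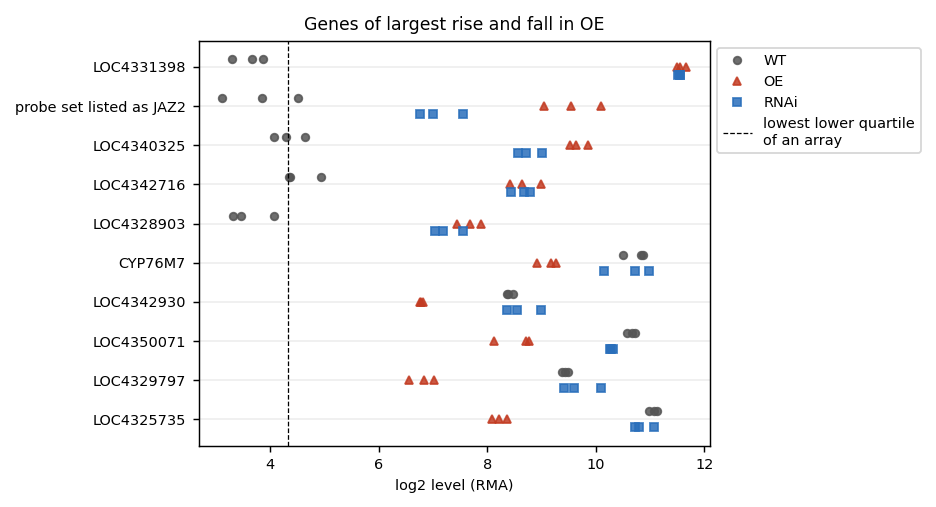
Log2 RMA level (x axis) on each of the 3 WT, 3 OE and 3 RNAi arrays for the 5 genes of largest stable rise and the 5 of largest stable fall in OE. Each gene is read by its probe set of highest mean among those that the platform gives to a single gene, and probe sets with no listed gene are left out. The dashed line is the lowest lower quartile of an array. The 5 that rose in OE also lay above WT in RNAi, while the 5 that fell lay at 6.56 to 9.27 in OE and apart from both WT and RNAi.

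With genes ranked in the same way, by the probe set of highest mean, the 5 largest stable falls were in genes that WT expressed well. None of these was called between RNAi and WT. LOC4325735, a putative cullin of the scaffold family of ubiquitin ligases, read 11.06, 11.13 and 10.97 in WT, 8.22, 8.36 and 8.09 in OE and 11.07, 10.79 and 10.72 in RNAi. It was 7.12-fold lower than WT (-2.83, SE 0.105, adjusted p = 1.08e-06) and 2.63 lower than RNAi (adjusted p = 1.79e-06), although a dim second probe set differed by 0.02. LOC4329797, an expressed protein, fell by 2.63 (6.20-fold, SE 0.17, adjusted p = 4.84e-05), from 9.44, 9.49 and 9.38 to 6.84, 7.02 and 6.56. LOC4350071 is annotated as a dirigent protein, a family that guides the coupling of lignan and lignin precursors. It read 10.72, 10.67 and 10.57 in WT and 8.78, 8.72 and 8.13 in OE (-2.11, adjusted p = 8.85e-05), with 10.26, 10.27 and 10.31 in RNAi. The aldehyde oxidase gene LOC4342930 fell on both of its brighter probe sets, by 1.62 and 1.67 (adjusted p = 0.000282 and 0.000527), and read 0.23 and 0.15 above WT in RNAi. The fifth, CYP76M7, belongs to the diterpenoid genes below. Probe sets with no listed gene fell as far. The subtilisin protease locus LOC_Os02g17000 went from 7.17, 7.57 and 7.65 to 5.44, 5.62 and 5.41 (-1.97, adjusted p = 0.000206), Os08g0267900 was at -1.835 (adjusted p = 4.84e-05) and LOC_Os06g38710, an expressed protein, at -2.05 (adjusted p = 0.00211), all stable.

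MADS-box transcription factors specify floral organs and also act in roots and leaves. Of 31 members 5 were called higher and 1 lower, 19.4% against 4.89% of all genes, while the median difference was 0.05 against -0.03. Lhs1 (OsMADS1), an E-class gene of the grass floret, read 5.04, 5.44 and 5.08 in WT and 7.66, 7.47 and 7.43 in OE. The rise was 5.04-fold (2.33, SE 0.11, adjusted p = 4.89e-06), and RNAi at 5.10, 5.10 and 5.02 lay with WT. OsMADS2, a B-class floral gene listed in the platform table as MADS, rose by 0.92 from 4.89, 5.15 and 5.10 to 5.86, 5.91 and 6.14 (adjusted p = 0.00236). MADS27 rose by 1.44 (adjusted p = 6.15e-05), its second probe set by 0.42 (adjusted p = 0.0185), and it was 0.915 above WT in RNAi as well (adjusted p = 0.00227). The B-class gene AP3 (OsMADS16) went the other way, from 8.70, 8.69 and 8.66 to 8.09, 7.94 and 8.30 (-0.57, adjusted p = 0.00992). These 4 calls were stable. MADS58, a C-class gene, differed by 0.78 (adjusted p = 0.0423) and FDRMADS3 by 0.66 (adjusted p = 0.0321). The MADS58 call was lost without any of WT1-3, OE1 or OE3 or RNAi2 (adjusted p up to 0.16), and the FDRMADS3 call without any of WT1-3 and OE1-3 or RNAi2 (up to 0.124). Of the other floral markers, OsMADS7 (listed as AGL6), OsMADS8 (MADS24) and MADS13 read below the lower quartile in both groups.

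The CCAAT-binding NF-Y factors, trimers of A, B and C subunits, moved in both directions. HAP2A, an A subunit gene, fell from 6.12, 6.02 and 6.08 to 5.06, 5.14 and 5.02 (-0.996, 1.99-fold, SE 0.11, adjusted p = 0.00172), and in RNAi it read 5.98, 6.31 and 6.48. HAP3F, a B subunit gene, rose from 8.44, 8.39 and 8.40 to 8.87, 8.89 and 8.97 (0.50, adjusted p = 0.0021). The other 9 of 11 members were not called (18.2% called). LOC_Os10g25850, which has no listed gene and which the study annotates as an NF-Y subunit, rose from 4.62, 4.62 and 5.25 to 7.99, 7.67 and 7.88 (3.02, 8.11-fold, adjusted p = 1.38e-05). It lay 1.61 above WT in RNAi and 1.41 higher in OE than in RNAi (adjusted p = 0.00119).

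DREB1 factors bind the dehydration-responsive element and switch on genes of cold and drought tolerance. DREB1G read 6.06, 5.81 and 6.52 in WT, 7.53, 7.93 and 7.475 in OE and 5.56, 5.005 and 4.97 in RNAi, so that the OE arrays were the highest and the RNAi arrays the lowest without overlap. The rise over WT was 1.51 (2.86-fold, SE 0.21, adjusted p = 0.00548), and the difference from RNAi 2.465 (adjusted p = 0.00024). RNAi minus WT, at -0.95, was not called (adjusted p = 0.103). DREB1E differed by 0.49 (adjusted p = 0.0262), a call lost without any of WT1-3 or OE2 or OE3 (up to 0.116). The other 6 of 8 DREB genes were not called (25% called). DREB1G also stands in the study's own table of changed genes, made on these arrays, so its call is not independent evidence. An ERF factor gene, LOC4330193, rose by 1.675 (adjusted p = 0.000517), from 4.88, 4.76 and 5.01 to 6.52, 6.25 and 6.91. It read 4.69, 4.88 and 4.98 in RNAi, level with WT.

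Other factors moved singly. OsbZIP49 was the only called member among 35 NAC and bZIP factors, dehydrins and LEA genes, at -0.68 (7.52, 7.66 and 7.82 in WT, 7.11, 6.77 and 7.06 in OE, adjusted p = 0.0092). LOC4326803, a NAM (no apical meristem) protein gene of the NAC family, fell by 1.54 (adjusted p = 2.69e-05) from 6.68, 6.55 and 6.80 to 5.21, 5.09 and 5.10, and it read 1.75 below WT in RNAi. A MYB gene, LOC4330397, fell by 1.32 (adjusted p = 0.00432) and a second dof gene, LOC4342790, by 1.20 (adjusted p = 0.000407), opposite to LOC4328903. Neither was lower in RNAi, where they read 0.247 and 0.125 above WT. S1FA2, a gene of the small S1FA family, rose by 0.57 (11.52, 11.50 and 11.44 to 12.09, 12.10 and 11.98, adjusted p = 0.00208). Of 58 homeobox, MYB, bHLH and DOF factors, HOX15 was called higher (0.50, adjusted p = 0.0348) and HOX4 lower (-0.44, adjusted p = 0.0431). The HOX15 call was lost without any of WT1-3 and OE1-3 or RNAi2 (up to 0.134), and the HOX4 call without any of WT1-3, OE2 or OE3 or RNAi1 or RNAi2 (up to 0.174). OsWRKY71, 1 of 6 WRKY genes, differed by 0.41 (adjusted p = 0.046), a call lost without WT1 or WT2, OE1 or OE2 or any of RNAi1-3 (up to 0.164). Of 6 further ethylene and AP2/ERF factors, none was called by limma, and 1 had an unadjusted p under 0.05 and none was called without moderation. The largest difference there was 0.50, in EIL1.

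**Figure D2:**
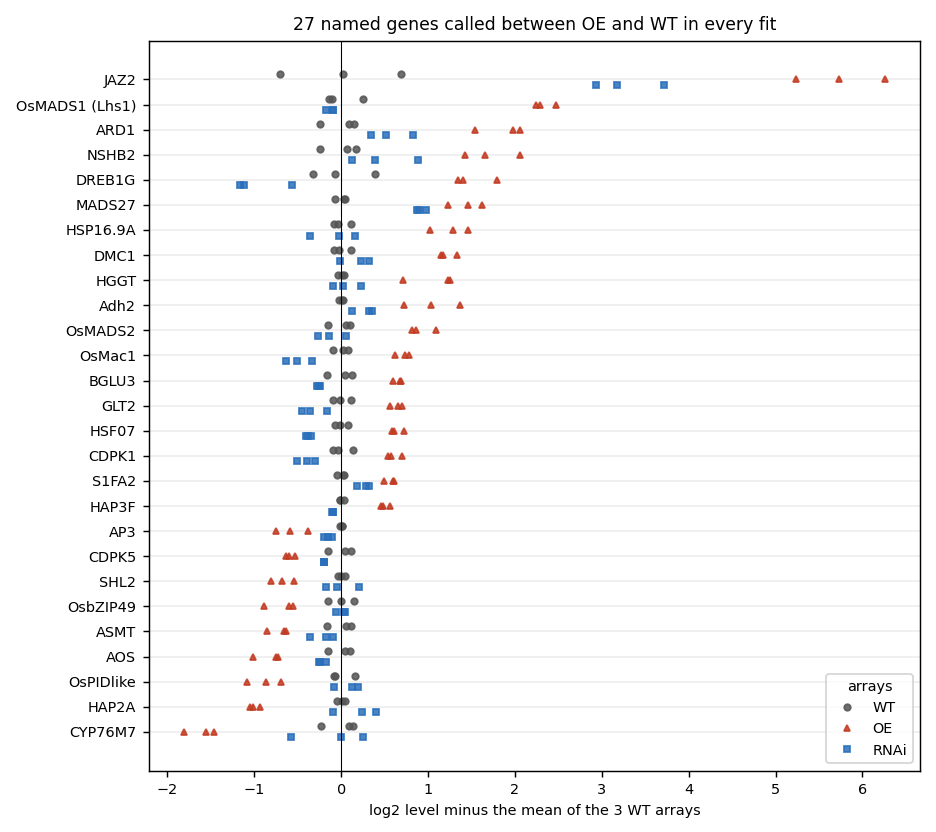
Log2 level on each array minus the mean of the 3 WT arrays (x axis) for the 27 named genes called between OE and WT with all 9 arrays and without each in turn, with WT, OE and RNAi arrays as circles, triangles and squares. For each gene the OE arrays lie on 1 side of the WT arrays, and the genes DREB1G, OsMac1, GLT2, HSF07, CDPK1, BGLU3 and HAP3F have all RNAi arrays on the opposite side of WT. None of those on the opposite side was called between RNAi and WT (adjusted p from 0.053 to 0.545). The share of all probe sets so placed was not counted.

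Jasmonate is made from linolenic acid through lipoxygenase, allene oxide synthase (AOS) and the reductase OPR7, and JAZ proteins repress the response to it. AOS fell from 10.88, 11.07 and 11.13 to 10.30, 10.28 and 10.02 in OE (-0.83, 1.78-fold, SE 0.095, adjusted p = 0.00193), against 10.78, 10.77 and 10.86 in RNAi. OPR7 was lower by 0.68 (adjusted p = 0.0343), a call lost without any of WT1-3, OE1 or RNAi2 (up to 0.136). Besides the doubtful JAZ2 probe set, the other 32 of 35 genes of this list were not called. The lipoxygenase gene LOX1.1 had the largest of their differences, at -1.99 (adjusted p = 0.0938). The list median was -0.08.

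Rice defends itself with diterpenoid phytoalexins, built from geranylgeranyl diphosphate by cyclases and P450 enzymes. CYP76M7 read 10.50, 10.87 and 10.82 in WT, 9.27, 9.17 and 8.92 in OE and 10.16, 10.72 and 10.98 in RNAi. It was 3.06-fold lower than WT (-1.61, SE 0.19, adjusted p = 0.00236) and 1.5 lower than RNAi (adjusted p = 0.00216). The linalool synthase gene LIS was at -1.03 (adjusted p = 0.0498), lost without any of WT1-3 and OE1-3 or RNAi2 (up to 0.178). Of 22 genes of terpene synthesis 2 were called lower and none higher (9.09% called, against 4.89% of all genes). Below 0 lay 16, and the list median was -0.25, beside -0.03 over all genes. In the study's table, however, the terpene synthase gene LOC4335529 was called higher, from 7.67, 7.96 and 8.04 to 9.76, 8.92 and 9.82 (1.61, adjusted p = 0.0143), and on a second probe set by 1.45 (adjusted p = 0.0459). The first call was lost without any of WT1-3 or OE1 (up to 0.0658). Another terpene synthase locus, LOC_Os03g22634, differed by 1.01 and was not called (adjusted p = 0.061). An HMG-CoA reductase gene, LOC4347443, of the mevalonate pathway that feeds sterols and other terpenes, fell by 1.41 (adjusted p = 0.00318). It read 10.04, 10.30 and 10.23 in WT, 8.602, 9.27 and 8.48 in OE and 9.60, 9.62 and 9.76 in RNAi. Other P450 genes moved in both directions. LOC_Os06g43510 rose by 1.02 (adjusted p = 0.000801) and Os07g0142100 by 1.955 (adjusted p = 0.00477), the latter from 7.16, 7.59 and 7.41 to 9.39, 8.72 and 9.90. A probe set with nearly the same identifier, given by the study to Os03g0371400, rose by 1.40 (adjusted p = 0.00951). Which locus they measure was not tested. LOC4345985 fell by 1.105 (adjusted p = 0.0468), lost without any of WT1-3, OE1 or OE3 or RNAi2 (up to 0.155). The ABA-degrading P450 gene ABA8OX2 was called at 0.59 (adjusted p = 0.0137), lost without WT2 or WT3 or OE1 (up to 0.0674), 1 of 13 named P450 genes outside terpene synthesis.

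Ethylene is formed from ACC by ACC oxidase, and acireductone dioxygenase (ARD1) works in the cycle that returns methionine to that pathway. ARD1 rose from 7.62, 8.02 and 7.95 to 9.84, 9.40 and 9.93 (1.86, 3.62-fold, SE 0.17, adjusted p = 0.000495) with a probe set on chromosome 10 whose annotation by the study names the same enzyme. Its second probe set differed by -0.07. A pair of ACC oxidase genes on chromosome 9 went opposite ways. LOC4347224, annotated as ACC oxidase 1 by the study, fell from 11.59, 11.68 and 11.75 to 10.18, 10.40 and 9.89 (-1.51, 2.86-fold, adjusted p = 0.000334), and RNAi lay above WT at 12.07, 12.16 and 12.38. The gene that the platform lists as ACO1, also an ACC oxidase in the study's annotation, went from 9.33, 8.13 and 8.54 to 10.12, 10.37 and 9.70 (1.39, adjusted p = 0.0353), beside 9.93, 9.27 and 9.78 in RNAi. That call was lost without WT2 or WT3 or OE1 or OE2 (up to 0.141). Cross-hybridisation between these homologues was not tested.

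A haemoglobin gene and a pair of neighbouring dehydrogenase genes were among the stable rises. NSHB2, a non-symbiotic haemoglobin that scavenges nitric oxide, read 6.21, 6.10 and 5.78 in WT and 7.68, 8.08 and 7.45 in OE (1.71, 3.27-fold, adjusted p = 0.00272), while NSHB1 differed by 0.18. The alcohol dehydrogenase gene Adh2 rose from 5.41, 5.45 and 5.46 to 6.16, 6.81 and 6.48 (1.04, 2.06-fold, adjusted p = 0.00432). LOC4350055, a dehydrogenase gene whose locus number is the next after that of Adh2 on chromosome 11, rose from 6.39, 6.53 and 6.37 to 8.07, 7.52 and 8.42 (1.57, adjusted p = 0.00682). In RNAi these read 0.47, 0.27 and -0.13 from WT, none called.

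**Figure D3:**
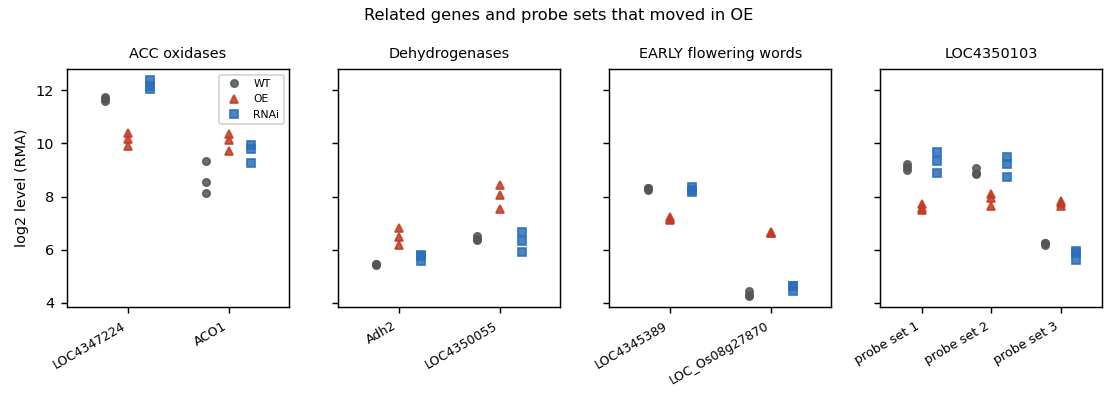
Log2 RMA level (y axis) on each array for 2 ACC oxidase genes, 2 neighbouring dehydrogenase genes, 2 neighbouring genes with the words EARLY flowering protein in the study's annotation, and 3 probe sets of LOC4350103. In 3 of the 4 panels features fell in OE beside features that rose, while both dehydrogenase genes rose.

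Close relatives moved apart in other places as well. LOC4345389, next in locus number to the rising LOC_Os08g27870 and with the same annotation, fell from 8.33, 8.34 and 8.26 to 7.11, 7.24 and 7.15 (-1.14, adjusted p = 4.84e-05), with 8.16, 8.24 and 8.37 in RNAi. LOC4350103 on chromosome 11 is annotated as a disease resistance family gene, of the kind whose products sense pathogens. One probe set of it fell from 9.11, 9.01 and 9.23 to 7.50, 7.73 and 7.58 (-1.52, adjusted p = 0.00154), while another rose from 6.25, 6.25 and 6.18 to 7.84, 7.66 and 7.77 (1.53, adjusted p = 2.69e-05). Both calls were stable, and OE differed from RNAi on both (-1.70 and 1.94, adjusted p = 0.000543 and 4.7e-06). Its remaining probe set was at -1.04 (adjusted p = 0.0153), lost without WT2 or WT3 or OE1 or OE3 (up to 0.0802). This was 1 of 3 genes with probe sets called in opposite directions, among 260 genes that had several probe sets and at least 1 call. Another resistance gene, LOC4346585, fell by 1.28 and 1.17 on its 2 probe sets (adjusted p = 0.000857 and 0.000668), and an NB-ARC gene, LOC_Os06g15750, rose by 1.36 from below the lower quartile (adjusted p = 0.00123).

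HSP16.9A, which encodes a small chaperone that keeps unfolding proteins soluble, rose from 6.73, 6.89 and 6.70 to 8.06, 7.80 and 8.23 (1.255, 2.39-fold, adjusted p = 0.00178). It read 6.93, 6.75 and 6.42 in RNAi. The heat stress factor gene HSF07 rose from 9.001, 8.95 and 9.10 to 9.62, 9.59 and 9.74 (0.64, adjusted p = 0.00133), with 8.67, 8.64 and 8.61 in RNAi. Groups did not overlap, and RNAi was the lowest, though not called against WT (-0.38, adjusted p = 0.053). The other 43 of 45 heat shock factors and proteins were not called, and the list median was -0.006. A DnaJ co-chaperone gene, LOC4324218, rose by 1.07 (adjusted p = 0.00587).

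Calcium signalling had 7 called members of 86 (8.14%), 5 higher and 2 lower. CDPK1, a calcium-dependent protein kinase, rose from 10.18, 10.23 and 10.40 to 10.81, 10.97 and 10.85 (0.60, adjusted p = 0.00567) and read 9.77, 9.88 and 9.97 in RNAi, 1.005 below OE (adjusted p = 0.000231). CDPK5 fell from 9.60, 9.87 and 9.80 to 9.22, 9.12 and 9.15 (-0.59, adjusted p = 0.00396), its second probe set being at -0.40 (adjusted p = 0.166). The calmodulin-like genes CML1 (0.61) and CML11 (0.47) had adjusted p of 0.0168 and 0.0139. The CML1 call was lost without any of WT1-3 or OE1 or OE3 (up to 0.0734), and the CML11 call without WT2 or OE1 (up to 0.059). MPK15 was the only called member of 20 MAP kinases and receptor kinases (0.47, adjusted p = 0.0143), lost without WT1 or WT2 or OE1 (up to 0.0687). Of 55 PP2C phosphatases only OsPP2C33 was called (-0.88, adjusted p = 0.0164), lost without WT1 or WT2 or OE1 or OE3 (up to 0.0714). Among 14 kinases and receptors of ABA signalling none was called by limma, 6 had an unadjusted p under 0.05 and 1 was called without moderation. The shares of all genes at these limits were not counted, so such counts, in this list and in others, lack a background.

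Of 61 auxin genes 3 were called, all lower, which is 4.92% against 4.89% of all genes. Over all genes, too, more were called lower (3.02%) than higher (1.87%). OsPIDlike, a PINOID-like kinase of the class that steers auxin transporters, fell from 6.80, 7.04 and 6.81 to 6.02, 5.79 and 6.18 (-0.88, adjusted p = 0.00403), but its second probe set differed by 0.19. GH3.6 and GH3.7, of a family that conjugates auxin to amino acids, were at -1.001 (adjusted p = 0.00954) and -0.36 (adjusted p = 0.0122). Each of these 2 calls was lost without a single array, WT2 for GH3.6 (0.0517) and WT3 for GH3.7 (0.0519). Dimmer probe sets of GH3.7 were at -0.297 and 0.003 and were not called (adjusted p = 0.359 and 0.991). The auxin list median was 0.02. In the list of other growth hormones, 2 of 39 were called (5.13%). CIGR1, a GRAS factor that responds to gibberellin and chitin, was at 0.50 (adjusted p = 0.0114), lost without WT2 (0.0596). The cytokinin-activating gene LOGL9 was at -0.31 (adjusted p = 0.0258), lost without any of WT1-3 and OE1-3 (up to 0.118). Of 59 developmental regulators 4 were called (6.78%), all higher. FIL1 was at 0.93 (adjusted p = 0.0106, lost without WT2 or WT3, up to 0.0545), and a dim second probe set of it at 0.064 (adjusted p = 0.803). FIL2 was at 0.46 (adjusted p = 0.016, lost without WT1 or WT3 or OE1 or OE3, up to 0.0745), DRR1 at 0.48 and the gravitropism gene LA (LAZY1) at 0.40. The DRR1 call (adjusted p = 0.0261) was lost without WT2 or WT3 or any of OE1-3 (up to 0.121) and the LA call (adjusted p = 0.0184) without WT2 or WT3 or OE1 or OE2 (up to 0.0811).

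Genes of secondary metabolism outside terpenes were called in both directions. ASMT, a methyltransferase of melatonin synthesis, fell from 12.41, 12.63 and 12.69 to 11.93, 11.73 and 11.95 (-0.71, 1.64-fold, adjusted p = 0.00663). ASMT3 was at -1.44 (adjusted p = 0.0185, lost without WT2 or WT3 or OE1 or OE2, up to 0.0925) and the cinnamyl alcohol dehydrogenase gene CAD8A at -0.73 (adjusted p = 0.0113, lost without WT2 or WT3, up to 0.061). These were 3 of 13 genes (23.1%, against 4.89% of all genes) in the list of indole and phenylpropanoid enzymes, where none was called higher. The lignin precursor gene 4CL-3, 1 of 22 pigment and phenylpropanoid genes, was at -0.41 (adjusted p = 0.0405), lost without any of WT1-3 and OE1-3 or RNAi2 (up to 0.158). HGGT, which makes tocotrienols, a form of vitamin E, rose from 4.94, 4.99 and 5.01 to 6.23, 6.21 and 5.69 (1.06, 2.09-fold, adjusted p = 0.00402). RNAi read 4.996, 4.89 and 5.21. A flavonol sulfotransferase gene, LOC4345032, rose by 1.23 (adjusted p = 0.00158), and the locus after it, LOC_Os08g14200 of glycosyl hydrolase family 16, by 1.52 from below the lower quartile (adjusted p = 0.00783). A flavonol synthase family gene, LOC_Os01g61610, fell by 1.21 (adjusted p = 0.0092) and a UDP-glucosyl transferase gene, LOC4343325, by 1.21 (adjusted p = 0.000517).

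Genes of lipids and carbohydrates were also among the stable calls. The 3-ketoacyl-CoA synthase gene LOC_Os10g07010, of very long chain fatty acid elongation, fell from 7.54, 7.29 and 7.51 to 5.68, 5.40 and 5.80 (-1.82, 3.53-fold, adjusted p = 0.000285). The glycerol-3-phosphate acyltransferase gene LOC4338289 fell from 6.75, 7.15 and 6.85 to 5.21, 5.62 and 5.19 (-1.58, adjusted p = 0.00548). Neither was called in RNAi, where they read -0.40 and 0.22 from WT. The large subunit gene of ADP-glucose pyrophosphorylase, LOC4339718, which supplies starch synthesis, fell by 1.04 (adjusted p = 0.00123). In the wall, rises were seen in the callose synthase family locus LOC_Os06g08380 (1.61, from 5.84, 5.21 and 5.63 to 7.24, 7.05 and 7.22, adjusted p = 0.00076), in the family 17 hydrolase gene LOC4335780 (1.28, adjusted p = 3.81e-05) and in a laccase locus, LOC_Os11g48060 (1.65, adjusted p = 0.000997). On 3 further probe sets LOC4335780 rose by 0.786 to 1.27 and on its dimmest it differed by -0.08. It was 0.63 below WT in RNAi and 1.91 higher in OE than in RNAi (adjusted p = 2.02e-06). Of the 72 named wall genes EXPB6 alone was called (-0.71, adjusted p = 0.0491), lost without any of WT1-3, OE2 or OE3 or any of RNAi1-3 (up to 0.157). Of 36 endoglucanases and wall glycosyltransferases none was called by limma or without moderation, and 7 had an unadjusted p under 0.05.

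Among 27 beta-glucosidases, which release hormones and defence compounds from their glucosides, 4 were called (14.8%). BGLU3 rose from 9.75, 9.47 and 9.68 to 10.22, 10.30 and 10.32 (0.65, adjusted p = 0.00254), and its other probe sets by 0.54 and 0.46 (adjusted p = 0.00935 and 0.0451). BGLU5 was at 0.70 (adjusted p = 0.0413, lost without any of WT1-3, OE1 or OE3 or RNAi3, up to 0.159), BGLU28 at 0.41 (adjusted p = 0.0373, lost without WT2 or WT3, any of OE1-3 or RNAi2, up to 0.158) and BGLU16 at -0.99 (adjusted p = 0.0213, lost without WT2 or WT3 or any of OE1-3, up to 0.102). In nitrogen assimilation, 2 of 18 genes were called higher. GLT2, a glutamate synthase, rose from 10.24, 10.17 and 10.37 to 10.96, 10.92 and 10.82 (0.64, adjusted p = 0.00548), with 9.81, 9.90 and 10.10 in RNAi. The nitrate reductase gene NIA1 was at 0.43 (adjusted p = 0.0353), lost without any of WT1-3, OE1 or OE2 or RNAi2 (up to 0.139). A dimmer NIA1 probe set was at -0.045 (adjusted p = 0.863). OsMac1 rose from 7.39, 7.28 and 7.46 to 8.16, 8.00 and 8.12 (0.71, adjusted p = 0.00305), and a second probe set by 0.69 (adjusted p = 0.00133). It read 7.04, 6.87 and 6.74 in RNAi, the lowest of the groups, though not called against WT (-0.49, adjusted p = 0.0562). The remaining, dimmer probe sets of OsMac1 differed between OE and WT by 0.325 and 0.418, and neither was called (adjusted p = 0.093 and 0.41). Of 39 trehalose and sucrose genes HXK4, a hexokinase, was called (0.50, adjusted p = 0.0189), lost without WT1 or WT3 or OE1 or OE3 (up to 0.092).

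In the lists of transporters the share called ran from 0% to 8.33%, against 4.89% of all genes, and none of these calls was stable. Of 46 genes of metal transport, Nramp1 was at 1.56 (adjusted p = 0.0321, lost without WT2 or WT3, OE2 or OE3 or RNAi2, up to 0.137), NRAMP3 at 0.34 (adjusted p = 0.0263, lost without any of WT1-3 or OE1 or OE2, up to 0.0968) and OsZIP1 at -0.74 (adjusted p = 0.0375, lost without any of WT1-3, OE1 or RNAi2, up to 0.156). Of 24 aquaporins, OsPIP2;2 was at 0.60 (adjusted p = 0.00935, lost without WT3, 0.054) and the silicon channel gene Lsi6 at 0.39 (adjusted p = 0.0468, lost without any of WT1-3 and OE1-3 or RNAi1 or RNAi2, up to 0.173). The phosphate transporter gene OsPht1;2 was at 0.46 (adjusted p = 0.0496, lost without any of WT1-3 and OE1-3 or RNAi2, up to 0.183), 1 of 23 phosphate genes. The nitrate transport partner NAR2.2 was at -0.94 (adjusted p = 0.044, lost without WT2 or WT3, OE1 or OE2 or any of RNAi1-3, up to 0.174), 1 of 35 genes of nitrogen, potassium, sodium and sulfur transport. None of 25 ABC and other transporters was called by limma or without moderation, and 7 had an unadjusted p under 0.05.

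Genes of the nucleus and of the cytoskeleton were next. DMC1, the recombinase of meiotic chromosome pairing, rose from 6.04, 6.10 and 6.24 to 7.27, 7.30 and 7.46 (1.22, 2.33-fold, SE 0.10, adjusted p = 0.000282), against 6.11, 6.36 and 6.44 in RNAi. It was 1 of 2 called among 26 genes of meiosis and DNA repair, with xrcc1 at -0.38 (adjusted p = 0.0476, lost without any of WT1-3 and OE1-3 or RNAi2 or RNAi3, up to 0.179). The list median was -0.06. LOC4325186, annotated as a kinetochore-like KIP1 protein, rose by 1.57 (adjusted p = 0.000811) and a cyclin gene, LOC4338430, fell by 1.12 (adjusted p = 0.000972), while in RNAi the cyclin gene read 0.83 above WT. SHL2, the RNA-dependent RNA polymerase RDR6 that makes secondary small RNAs, fell from 7.89, 7.84 and 7.82 to 7.30, 7.16 and 7.04 (-0.68, 1.60-fold, adjusted p = 0.00875). Of the 18 genes of RNA silencing, OsRDR2 was at -0.36 (adjusted p = 0.0248, lost without WT1 or WT3 or OE1 or OE3, up to 0.117) and AGO1D at 0.34 (adjusted p = 0.0396, lost without any of WT1-3 and OE1-3, up to 0.156). The DNA methyltransferase gene CMT3, 1 of 11 chromatin genes, was at 0.34 (adjusted p = 0.0226, lost without any of WT1-3 or OE1 or OE3, up to 0.108).

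Cell division genes held 2 calls of 66, MCM4 of the replication helicase at 0.96 (adjusted p = 0.0143, lost without WT1 or WT3 or OE1 or OE3, up to 0.0746) and MCM9 at -0.38 (adjusted p = 0.0493, lost without any of WT1-3 and OE1-3 or RNAi2, up to 0.16). A second MCM9 probe set was at -0.75 (adjusted p = 0.000288). Among 73 kinesins, formins and other cytoskeletal genes the tubulin gene TUB2 was at -0.51 (adjusted p = 0.0116, lost without WT2, 0.0512), KIN14M at -0.43 (adjusted p = 0.0165, lost without WT2 or WT3 or OE1 or OE2, up to 0.0766) and FH10 at 0.54 (adjusted p = 0.036, lost without any of WT1-3 and OE1-3 or RNAi2, up to 0.143). Of 50 thioredoxins, glutaredoxins and disulfide isomerases only OsPDIL1-2 was called (-0.41, adjusted p = 0.0305, lost without any of WT1-3, OE1 or RNAi2, up to 0.12). Of 44 lipid transfer proteins, germins, cystatins and CASP-like genes only OsCASPL1E1 was (0.38, adjusted p = 0.0324, lost without any of WT1-3 and OE1-3, up to 0.121).

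In all, 75 of the 1419 genes in the 47 lists were called, 5.29% against 4.89% of all genes, and 23 of them were stable. The 12 lists without a called gene, with 223 genes, held 44 genes at an unadjusted p under 0.05 and 3 called without moderation. For these limits the share over all genes was not counted. Among these lists were the genes a leaf uses most. The 18 photosynthesis genes had a median of 0.07, and the largest difference was 0.67 (CPDK2, adjusted p = 0.539). The 32 genes of ribosome and translation lay between -0.23 and 0.12, 29 of them below 0, with a median of -0.07. No call was made among 19 pathogenesis-related genes and chitinases (CH16 at -0.80, adjusted p = 0.256), 23 named antioxidant enzymes and peroxidases (GST1 at -0.31, adjusted p = 0.186), 17 flowering and clock genes (Hd1 at -0.43, adjusted p = 0.0559), 12 starch genes (SS1 at -0.68, adjusted p = 0.171), 12 genes of ethylene and strigolactone signalling (CCD8A at -0.37, adjusted p = 0.274) or 9 auxin amidohydrolases (ILL6 at -0.24, adjusted p = 0.334). Outside these named genes, the study's table holds a glutathione S-transferase gene, LOC4349190, with a stable fall from 8.20, 8.16 and 8.04 to 7.004, 7.23 and 7.07 (-1.03, adjusted p = 0.00195), although its second probe set differed by 0.03. It also holds peroxidase genes LOC4337484 (-1.76, adjusted p = 0.041) and LOC4328841 (-1.75, adjusted p = 0.0483), whose calls were each lost without any of WT1-3, OE1, OE3 or RNAi2 (up to 0.126 and 0.143). The brightest probe set of LOC4328841 differed by only -0.085 (adjusted p = 0.651). A dimmer one was at -1.58 and was not called either (adjusted p = 0.059).

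**Figure D4:**
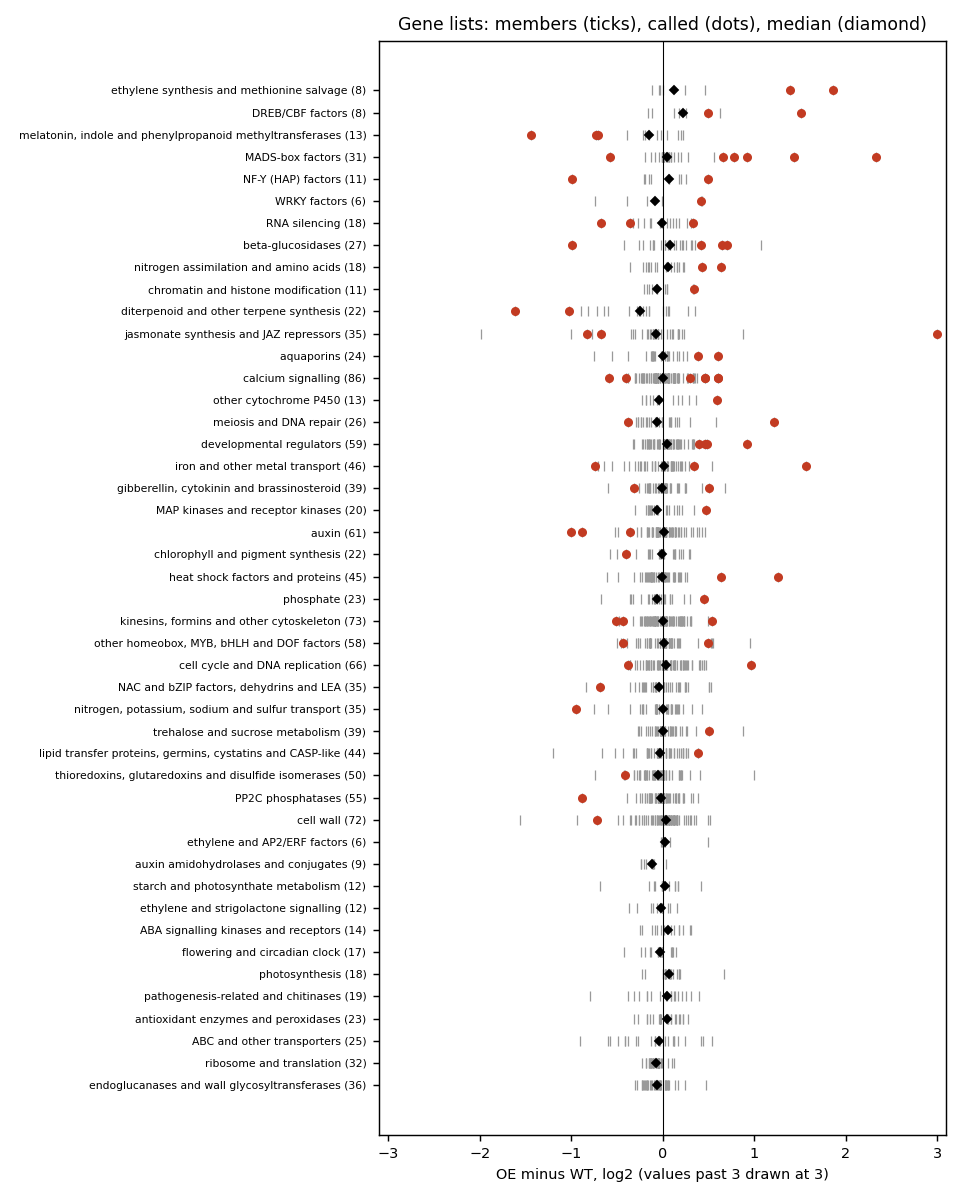
Difference between OE and WT on the log2 scale (x axis) for the genes of each list with at least 5 genes (y axis, gene number in brackets), with every member as a tick, called members as dots and the median as a diamond; values past 3 are drawn at 3. The medians lie between -0.25 and 0.22, and the called genes are few in each list and often on both sides of 0.

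By chromosome, the share of genes called ran from 4.11% on chromosome 3 to 8.04% on chromosome 11, where 68 of 846 genes were called, 25 higher and 43 lower. Adh2, LOC4350055, LOC4350071 and LOC4350103 are all on chromosome 11. Neighbours were taken in the order of the reference gene table. Of the 876 called genes, 758 had no called gene next to them among those tested, 56 runs held exactly 2 and 2 runs held 3. With 4.89% of all genes called, most called genes lack a called neighbour in any case. Whether these counts differ from those of scattered calls was not tested. One run on chromosome 7 held 2 protease inhibitor and lipid transfer genes, LOC4342533 (8.67, 9.08 and 8.82 in WT, 6.78, 7.41 and 7.32 in OE, -1.69, adjusted p = 0.0213) and LOC4342534 (-1.36, adjusted p = 0.0113), and LOC4342537 (-0.48, adjusted p = 0.0242). None of these 3 calls was stable. They were lost without any of WT1-3 or OE1 or OE3 for LOC4342533 (up to 0.0975), WT2 or WT3 or OE1 for LOC4342534 (up to 0.0552), and WT1 or WT3 or OE2 or OE3 for LOC4342537 (up to 0.11). The other run, on chromosome 12, held LOC4352358 (-0.78, adjusted p = 0.00914, stable), LOC4352384 (-0.71, adjusted p = 0.0105, below the lower quartile in both groups) and LOC4352385 (0.58, adjusted p = 0.0248). In the reference gene table LOC4352384 stands 49 places after LOC4352358. They count as neighbours only because no gene between them was tested. The LOC4352384 call was lost without WT2 or WT3 (up to 0.0568) and the LOC4352385 call without any of WT1-3 or OE1 or OE2 (up to 0.104). No run of 3 was left without WT2, WT3 or OE1.

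**Figure D5:**
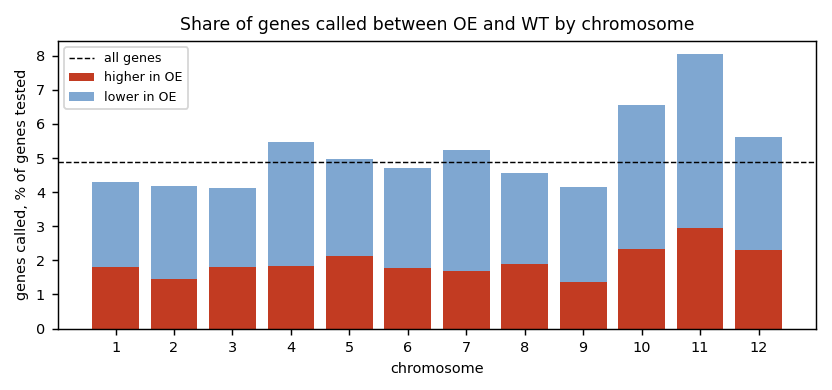
Genes called between OE and WT as a percentage of the genes tested on each of the 12 chromosomes (bars, split by direction), with the share over all genes as a dashed line. Chromosome 11 reaches 8.04% and chromosome 10 reaches 6.56%, against 4.89% over all genes.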

How the data were processed

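The authors deposited 1 table of log2 values made by RMA (background correction, quantile normalization and summary by probe set), with no software version stated. RMA draws all arrays towards 1 distribution, so a shift shared by most transcripts of a group is reduced and dim levels are compressed. The 57381 rows included 187 for controls and reporters, which no test used. The platform annotation gave 1 gene for 22436 of the rest, several for 95 and none for 34663. Names came from a RefSeq gene table (assembly ASM3414082v1), which named 2458 genes. Locus numbers and descriptions came from the study's tables, without their values. No coordinates or sequences are given because no genome or sequence table was used.

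With limma 3.58.1, group means were estimated from all 9 arrays (R 4.3.3, 6 residual and 3.78 prior degrees of freedom), two-sided, with Benjamini-Hochberg adjustment over 57194 probe sets. The 3 groups share 1 estimate of the spread. Comparisons with WT share the WT arrays, so values of RNAi stand beside those of OE and OE minus RNAi was tested itself. Genes were named first by rule. It took OsHMGB707, the up to 12 named genes of largest stable rise and fall, and genes in runs of 3 neighbouring called genes. From each list it took called members (at most 4) or else that of largest difference. It also took the 5 genes of largest stable rise and fall, whatever their annotation. For these, each gene was read by its probe set of highest mean among those given to a single gene. Outside the rule stand, among others, the further stable named genes that rose. Genes picked from the study's table after their values were seen stand outside it too. Another 10 lists were written from the gene table. The members and lists were chosen with earlier results of these data known. Pools of seedlings are the replicates, so p-values measure the spread between pools.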

Additional observations from a re-analysis of the deposited data

Results flagged for a closer look

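Of the 64 reporter probe sets on the array, which measure sequences foreign to rice and were left out of the tests, 1 differed by 9.04 on the log2 scale between OE and WT and by 6.57 between RNAi and WT. It drew attention because it carries signal above the wild-type level in data that the comparisons do not use. It read 4.15, 4.15 and 4.22 in WT, 13.23, 12.94 and 13.48 in OE and 10.40, 11.77 and 10.06 in RNAi, with no overlap between the groups. What it measures is not annotated in the tables used here. Every OE array lay above every WT array for 7 of the 64, and the second largest difference was 0.72.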

How the results depend on the processing

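The 1680 calls between OE and WT became 937 with the replicate number as a block, 731 without moderation of the variance and 3929 with array weights, and the other alternatives left between 1312 and 2035. Higher and lower calls became 438 and 499 with the block, 295 and 436 without moderation, and 1730 and 2199 with weights. With 1 array left out they numbered 527 to 1939 in all, 281 to 805 higher and 246 to 1134 lower, against 716 and 964. Centring made the split 595 higher to 1230 lower, and the share of higher calls, 42.6% with all arrays, was 52.8% without OE replicate 2, 50.3% without WT replicate 2 and 53.3% without WT replicate 3. Calls over 2-fold, 209, became 131 without moderation and 160 to 231 with 1 array left out. Calls between OE and RNAi, 3521, became 1623 without moderation, 6310 with weights and 1693 to 4141 with 1 array left out. Of 117 called named genes, 65 were called with the block, 49 without moderation, 257 with weights and 37 to 136 with 1 array left out, and the 75 calls in lists became 29 to 89. Runs of 3 numbered 2, but 4 from the OE and WT arrays only, 0 with the block, 0 without moderation, 26 with weights, 5 after centring, 7 among brighter probe sets and 0 to 3 with 1 array left out. The causes were not tested. Replicate numbers did not pair the arrays (correlations of same-numbered arrays -0.328 to 0.116). Of 87 genes followed, 35 were called whichever array was left out, and of their 315 values under other settings 303 kept direction and call, 12 missed the threshold and 0 reversed. The reporter difference, 9.04, was 8.91 to 9.18 without 1 array and 9.01 after centring, checks added after the data were seen. With 3 arrays a group, small differences are not resolved, and dim levels limit the fold of low genes.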
